A study of Mus musculus with 2 samples.

Results

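The C/EBP genes Cebpa, Cebpb, Cebpd, Cebpe and Cebpg and the CHOP gene Ddit3 were examined for CHOP binding in the liver of mice under endoplasmic reticulum stress. These 6 genes were chosen by name, with earlier results of these data known, from 21865 protein-coding genes, and their peaks were assigned by position. A promoter peak has its summit, the point of highest read density, within 1 kb of a start site of the gene. A distal peak lies further away but within 50 kb, and no protein-coding transcript of another gene starts nearer to it. Together the 6 genes had 9 of the 14157 peaks in the list.

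The chromatin came from liver of wild-type mice given an intraperitoneal injection of tunicamycin, an inhibitor of N-linked protein glycosylation, at 1 mg/kg for 8 h. Tissue of 3 mice was pooled into 1 immunoprecipitated library (antibody B-3 against CHOP), and 1 input library from liver of the same genotype and treatment was the control. Neither untreated nor CHOP-deficient liver was among the samples, so a peak describes antibody signal in the stressed liver and not a change. Such signal is called binding here. Without CHOP-deficient liver, signal that does not come from CHOP cannot be told apart from CHOP binding. Binding in hepatocytes and in other liver cells cannot be told apart, and no expression was measured by which the tissue label could be checked.

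C/EBP proteins are transcription factors of the basic leucine zipper (bZIP) class: the zipper joins a pair of subunits into a dimer and the basic region contacts DNA. CHOP belongs to the family but has an altered basic region and acts mainly as a partner of other C/EBP or ATF subunits. It is made when the PERK kinase phosphorylates eIF2α and the factor ATF4 accumulates. In liver, C/EBPα sustains the metabolic programme of hepatocytes, C/EBPβ and C/EBPδ take part in the acute-phase response, C/EBPγ lacks an activation domain of its own and pairs with ATF4, and C/EBPε is known for its role in granulocytes.

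CHOP peaks at these genes were of very unequal strength. The fold of a peak is the reads at its summit plus 1, divided by the local background in reads plus 1, so it is smaller than the plain ratio where the background is low. The peaks at Cebpg, Cebpb and Ddit3 reached folds of 131, 76.3 and 60.9, whereas the other 6 peaks, at Cebpa, Cebpd and again at Cebpg and Ddit3, stood between 4.98 and 10.2. Cebpe had none. The 3 strong peaks held the same letters TGATGCAA, an element for a C/EBP subunit paired with an ATF subunit, close to their summits. None of the peaks at Cebpa or Cebpd held it.

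The sites of Cebpb and Ddit3 are printed to show the element with its flanking bases. Each is 30 bases long, from GRCm38.p6 (mm10), read 5′ to 3′ on the strand of the element, with the element in capitals.
Cebpb, chr2:167690098-167690127, plus strand: gtttcgggactTGATGCAAtccggatcaaa
Ddit3, chr10:127290481-127290510, minus strand: gggggcggggaTGATGCAAtgtttggcaac
Outside the element, 7 of the 22 flanking positions carried the same base in both sites. No comparison with unrelated sequences was made, so this number is a description only.

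The wider sequence at the promoter summit of Ddit3 shows what else lies beside the element. The window is 101 bases centred on the summit, on the strand of the gene, and capitals mark the C/EBP-ATF composite element (TGATGNAA) and the C/EBP site (TTGCNNAA, a looser form of the palindrome TTGCGCAA).
Ddit3, chr10:127290457-127290557, plus strand: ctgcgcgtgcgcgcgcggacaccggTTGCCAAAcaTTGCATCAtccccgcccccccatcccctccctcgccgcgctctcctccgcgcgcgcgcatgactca
At Ddit3 the composite element appears as its reverse complement, 2 bases after a C/EBP site, and the window ends in an AP-1 heptamer. The composite and the C/EBP site occurred together in 52 of all 14157 summit windows (0.367%), and together with an AP-1 heptamer in 5 (0.0353%). These combinations were not planned and are those that the Ddit3 window holds. Ddit3 is therefore among the counted windows by construction, and the shares are a description only. In the window of the same length at Cebpg no C/EBP site of this form was matched.

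Ddit3 encodes CHOP itself. Its strong peak at chr10:127290158-127291021 rested on 92 reads at the summit against a local background of 0.53 reads, which gave a fold of 60.9 with a 95% Poisson interval of 49.2 to 74.5. The summit lay 267 bp upstream of the nearer start site, and the peak, 864 bp wide, reached across it into the gene. Among the 6099 genes with a promoter peak, the highest peak of Ddit3 ranked 17. A weak peak lay inside an intron, 900 bp downstream of a start site (chr10:127291633-127291804, 7 reads, fold 6.0, interval 2.86 to 11.6). At 172 bp it had the smallest width found in the list, which many other peaks shared (rank 11443 of 14157, with ties). Its window held TGATGAAA at the edge, 45 bp from the summit, and the hexamer TTGCAT separately, 38 bp on the other side.

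Cebpg encodes C/EBPγ, the partner of ATF4. Its strong peak at chr7:35055568-35056776 had 329 reads at the summit, more than any other peak in the list, and a −log10 q of 621 that also ranked 1. By fold (131, interval 117 to 146) it ranked 5 of all peaks and 1 among promoter peaks. Cebpg has start sites at 35056573 and 35055940 on the minus strand, and the peak, 1209 bp wide, covered both. The summit lay between them, 401 bp inside the longer transcript in its intron and 232 bp upstream of the shorter one. A weaker peak stood 721 bp upstream of the gene (chr7:35057147-35057418, 13 reads, fold 10.2, interval 5.80 to 17.0). It held a C/EBP site, TTGCTAAA, 17 bp from the summit and no composite element, as its 101 bases on the gene's strand show.
Cebpg, upstream peak, chr7:35057244-35057344, minus strand: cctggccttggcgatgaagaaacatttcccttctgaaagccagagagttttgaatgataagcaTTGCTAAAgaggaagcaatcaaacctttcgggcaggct

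Cebpb, the gene of C/EBPβ, lay wholly inside a single called peak, for which reads are known only at the summit. The peak at chr2:167688686-167690448 was 1763 bp wide, ranked 19 in width, and covered all 1504 bp of this single-exon gene together with its start site. Its summit held 161 reads over a background of 1.12 (fold 76.3, interval 65.1 to 89.0) and was placed in the 3′ UTR. The summit was 1172 bp away from the start site. By the place of its summit it is therefore a distal peak, and it was the only distal peak of the 6 genes. The nearest start site of another kind belonged to a transcript of Tmem189 that is not annotated as protein-coding, 265 bp from the summit. That of the long noncoding RNA gene A530013C23Rik, 1090 bp away, was also nearer than the start site of Cebpb. The composite element lay 25 bp beyond the summit. The peak also held TGACG, the core of the cAMP response element, at 5 places, of which 3 lay over 1 kb upstream of the summit at the promoter end.

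Cebpa and Cebpd had weaker peaks with summits in GC-rich coding sequence. At Cebpa, the gene of C/EBPα, the summits lay 464 and 926 bp downstream of the nearer start site, both inside the coding exon of a transcript. The nearer one had 11 reads and a fold of 4.98 (2.70 to 8.59), and the further one (chr7:35119954-35120343) had 20 reads and a fold of 8.34 (5.25 to 12.7). At Cebpd, the gene of C/EBPδ, a peak with its summit 58 bp inside the gene, which began upstream of the start site, had 13 reads and a fold of 6.81 (3.85 to 11.3), and one 569 bp inside (chr16:15887619-15888411) had 27 reads and a fold of 9.39 (6.31 to 13.5). Local backgrounds at these 4 peaks were 1.06 to 1.98 reads, against 0.33 and 0.37 at the weak peaks of Ddit3 and Cebpg, so 27 reads at Cebpd gave a lower fold than 13 reads upstream of Cebpg. The sequences at the stronger summit of each gene are given because no C/EBP element was matched in them.
Cebpa, chr7:35120179-35120279, plus strand: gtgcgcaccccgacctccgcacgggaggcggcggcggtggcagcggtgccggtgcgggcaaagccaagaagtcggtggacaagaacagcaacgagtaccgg
Cebpd, chr16:15887805-15887905, plus strand: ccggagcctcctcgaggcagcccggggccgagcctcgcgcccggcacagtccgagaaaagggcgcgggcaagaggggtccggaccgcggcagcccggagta

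Cebpe had no promoter or distal peak. The nearest summit was 25845 bp from its start site, had a fold of 4.82 (2.30 to 9.29) on 7 reads and lay 92 bp from a start site of 1700123O20Rik. With no peak called at Cebpe, binding there was not detectable in this list.

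**Figure D1:**
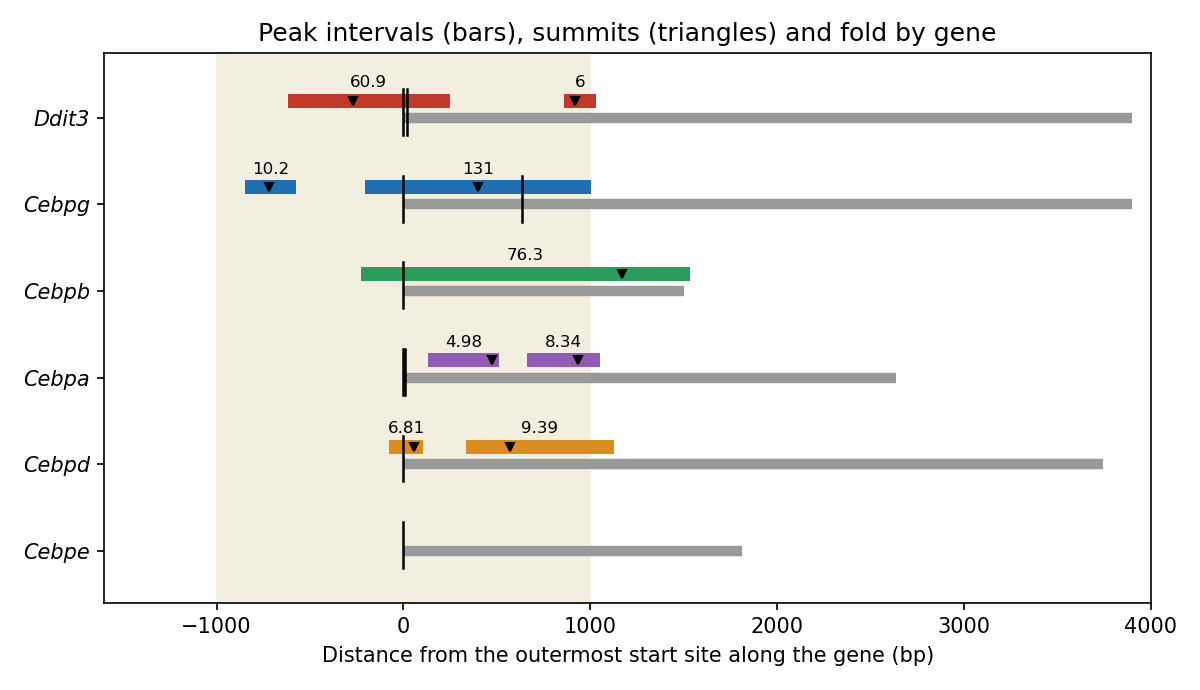
Peak intervals (coloured bars), summits (triangles) and folds (numbers) of the 6 genes, by distance in bp from the outermost start site along each gene. Grey bars are the genes, and those of Ddit3 and Cebpg are cut short just before the right edge. Vertical ticks are start sites and the shaded band is 1 kb on either side of the outermost start. The peak of Cebpb spans the whole gene with its summit outside the band, and the row of Cebpe is empty.

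The Poisson intervals of the 3 strong peaks did not overlap those of the 6 weak ones. The peaks were called strong or weak by these same folds, so this describes the split and does not test it. The lowest limit among the strong peaks was 49.2 (Ddit3) and the highest among the weak ones was 17.0 (Cebpg, upstream peak). Within the strong peaks, the interval of Cebpg lay above those of Cebpb and Ddit3, which overlapped. The intervals of all 6 weak peaks overlapped each other. The strong peaks ranked 5, 55 and 88 by fold among 14157, and the weak ones between 3062 and 11807. The median peak had a fold of 6.75 on 11 reads, and 7 of the 9 peaks exceeded that fold.

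**Figure D2:**
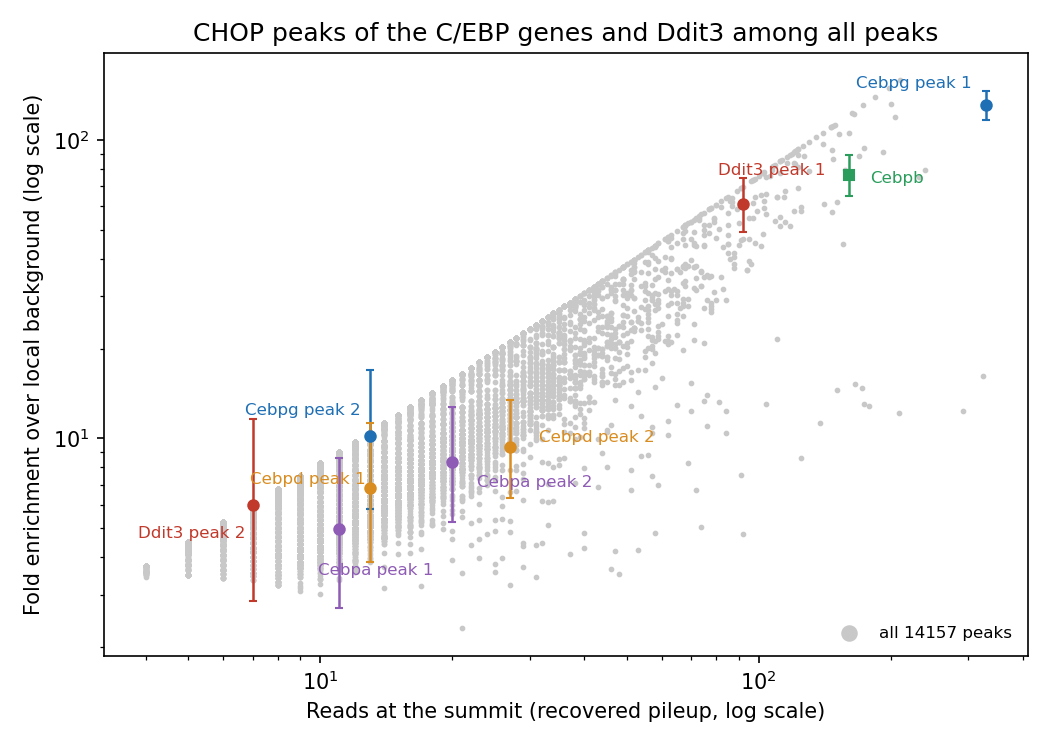
Fold enrichment against reads at the summit, both on log axes, for all 14157 peaks (grey) and the 9 peaks of the C/EBP genes and Ddit3 (coloured; circles are promoter peaks, the square is the distal peak). Bars are 95% Poisson intervals, and the peaks of Cebpg (329 reads), Cebpb (161 reads) and Ddit3 (92 reads) stand apart from the 6 others at 7 to 27 reads.

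Promoter peaks were found at 4 of the 6 genes (Cebpa, Cebpd, Cebpg and Ddit3), against 27.9% of all protein-coding genes. Each of the 4 had 2 such peaks, a number reached by 3.60% of protein-coding genes. A distal peak was found at 1 of the 6, against 18.0% of all genes, and a peak of either kind at 5 of the 6, against 38.2%. Near the 1 kb limit, the summits at 900 bp in Ddit3 and 926 bp in Cebpa fell inside and that of Cebpb at 1172 bp outside. With the whole peak interval in place of the summit, Cebpb also counts, which gives 5 of 6 genes against 28.3% of all.

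Within 100 kb of their start sites, Ddit3 had 9 summits, Cebpb 6, Cebpa 5, Cebpg 4 and Cebpd and Cebpe 3 each, their own peaks included, against a median of 2 over all protein-coding genes and an upper quartile of 4. Some of these summits were neither promoter nor distal peaks of any of the 6 genes. They numbered 7 near Ddit3, 5 near Cebpb, 3 near Cebpe, 1 each near Cebpa and Cebpd and 0 near Cebpg. Some of those near Cebpb, and the 1 near Cebpd, had that same gene as nearest gene but lay beyond the distal limit. Cebpg and Cebpa are neighbours on chromosome 7, and no summit lay between the upstream peak of Cebpg and the promoter peaks of Cebpa, 61999 bp from that summit to the start of Cebpa. On the other side of Cebpa the next summit was 96059 bp from its start, at the promoter of Lrp3 (fold 8.62). Around Cebpb, the summit of a peak at the promoter of Gm20431 was 27397 bp away (fold 6.32), and those of a pair of peaks nearest to Ube2v1 were 46011 and 57037 bp away (folds 3.75 and 11.8). The next peaks with Cebpb as nearest gene were 86253 and 88603 bp away (folds 8.68 and 5.58), and the next of Cebpd was 57158 bp away (fold 3.93 on 5 reads). Near Ddit3, a peak 20810 bp downstream lay 183 bp from a start site of Mars, the methionyl-tRNA synthetase gene, with a fold of 16.2 (10.9 to 23.3). On the other side, a peak 24119 bp away at Dctn2 had a fold of 3.97 (2.03 to 7.18), and the 5 others near Ddit3 were 61192 bp or further away with folds of 4.63 to 8.39.

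Matches to the composite element were found in some of the 9 peaks. Over the whole list, peaks with TGATGNAA at the summit had a median fold of 8.25, and those without it 6.70. TGATGNAA on either strand lay within 50 bp of the summit in 4 of the 9 peaks: the strong peaks of Ddit3, Cebpg and Cebpb and the weak intronic peak of Ddit3. It was present in 6.28% of all summit windows, in 1.89% of those at promoter peaks and in 9.81% of those at distal peaks, and in 0.977% of 54373 windows of the same length centred on protein-coding start sites. The exact letters TGATGCAA, read off after the strong peaks were seen, were in 3 of the 9 windows, in 2.99% of all and in 0.840% of promoter windows. Of the 15 promoter peaks at or above the fold of Ddit3, 2 held TGATGCAA, which were Ddit3 and Cebpg themselves, and 5 held TGATGNAA.

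The element lay 12 bp from the summit at Ddit3, 24 bp at Cebpg and 25 bp at Cebpb. Over all windows that hold TGATGCAA the median distance was 18 bp. The genome chromosomes with peaks hold 87107 such sites, of which 689 (0.791%) lay inside a peak, while peaks cover 0.178% of the sequence. Within 50 kb of their start sites, Cebpb had 4 sites, Ddit3 3, Cebpd 2, Cebpe 2, Cebpg 1 and Cebpa 0. Inside peaks were 1 of 4 at Cebpb, the only site at Cebpg and 2 of 3 near Ddit3, the second of which belonged to the peak at Mars. The sites near Cebpd, 8835 and 25451 bp from its start, and those near Cebpe, 24267 and 49433 bp away, had no peak.

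Other elements were sparse. The C/EBP site TTGCNNAA was matched at the summit in the strong peak of Ddit3 and the upstream peak of Cebpg. It was in 4.44% of all windows, in 2.11% of those at promoter peaks and in 6.32% of those at distal peaks. The AP-1 heptamer TGANTCA was matched at Ddit3 only (2.68% of all windows, 1.09% at promoter peaks and 3.96% at distal peaks). The GC box GGGCGG was also matched at Ddit3 only. It was in 23.4% of all windows, in 45.4% of those at promoter peaks and in 5.78% of those at distal peaks. The hexamer TTGCAT overlaps the composite in TGATGCAA by construction, and was in the same 4 windows as TGATGNAA. It was in 7.69% of all windows, in 2.73% of those at promoter peaks and in 11.7% of those at distal peaks. No member window held the full C/EBP palindrome TTGCGCAA (0.134% of all), TGACGTCA (0.516%), TGACG (8.81%), CCAAT (9.17%), TGCAATCCC (0.417%), the E-box CACGTG (3.37%) or the ER stress response element known as ERSE, for which a CCAAT box and CCACG 9 bases apart were searched. RefSeq promoter sequences of GRCm38.p6, 300 bases around a start site, were matched for Cebpa, Cebpb, Cebpg and Ddit3. None of these 4 held TGATGNAA, which 3.97% of 32851 such promoters did: the element of Ddit3 lay upstream of that stretch, that of Cebpg inside the gene and that of Cebpb at its end.

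**Figure D3:**
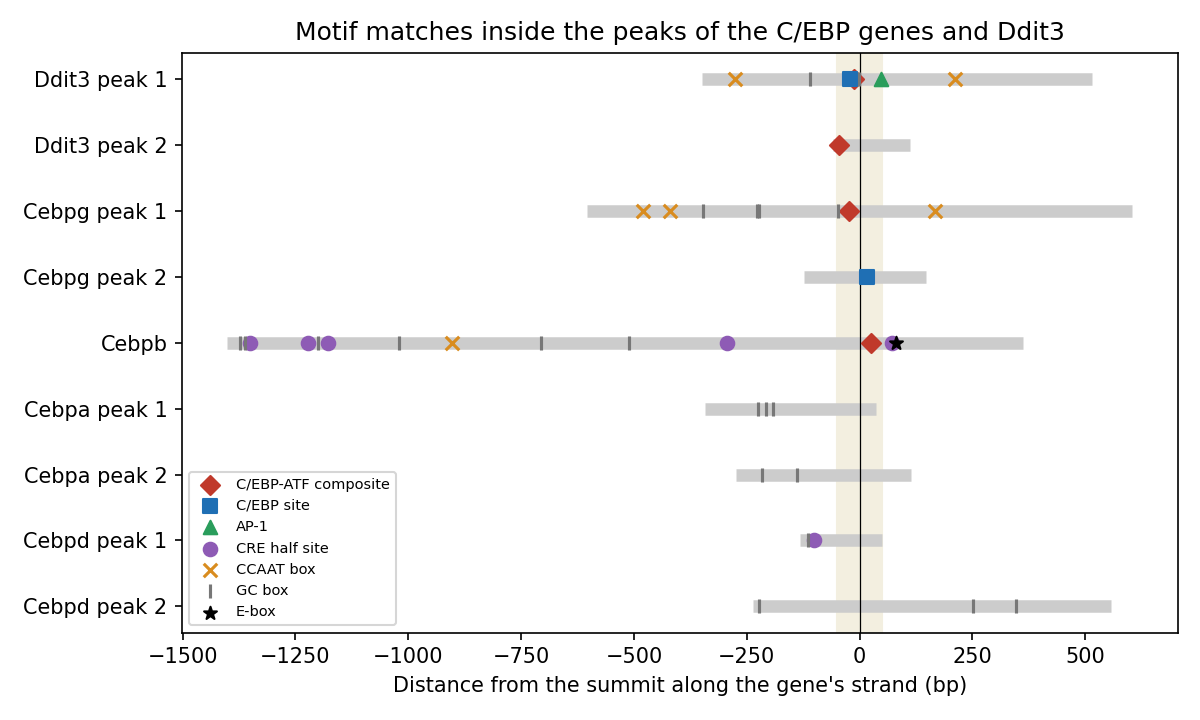
Motif matches (symbols) inside each of the 9 peaks (grey bars), by distance in bp from the summit along the strand of the gene, with the 50 bp on either side of the summit shaded. The composite element lies in the shaded band in both Ddit3 peaks, in the wide Cebpg peak and at Cebpb, and the peaks of Cebpa and Cebpd hold only GC boxes and, at Cebpd, the core of a cAMP response element.

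Base composition did not order the peaks by strength. The GC share was 59.0% in the strong peak of Ddit3, 67.5% at Cebpg and 68.6% at Cebpb, and 63.2% to 75.4% at Cebpa and Cebpd, against a median of 72.1% over all promoter peaks. The upstream peak of Cebpg (41.2%) and the intronic peak of Ddit3 (53.5%) were below the median of all peaks, 55.1%. The CpG observed/expected ratio was highest at Cebpb, 1.18, above that of 98.7% of peaks or equal to it, and lowest in the intron of Ddit3 at 0.0816. Sequence marked as repeat in the reference made up 33.8% of the upstream peak of Cebpg and at most 8.10% of the 8 others.

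Genes that act with the C/EBP proteins were read from lists chosen with earlier results of these data known. The genes of a list are not a random sample. Its Wilson interval describes the count only and tests no difference from all genes. Of 18 bZIP partners and relatives, 10 had a promoter peak (55.6%, Wilson interval 33.7 to 75.4%), against the 27.9% of all protein-coding genes. The highest were Nfil3, a bZIP repressor, at 30.7-fold, Atf3, a stress-induced repressor, at 23.8-fold, Jund, an AP-1 subunit, at 13.5-fold and Atf5, a relative of ATF4, at 10.4-fold. Batf, Batf2, Batf3 and Atf7 had no peak of either kind, and Atf2, Jun, Fos and Dbp had distal peaks only. The median fold of the 10 was 9.70, against 6.86 for all genes with a promoter peak. Each of these 4 leading relatives lay below the lowest limit of the strong Ddit3 peak.

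Regulators of C/EBP genes or proteins had promoter peaks at 10 of 14 (71.4%, Wilson interval 45.4 to 88.3%), against the 27.9% of all protein-coding genes. The kinase gene Gsk3b, whose product phosphorylates C/EBP proteins, led at 20.5-fold, followed by the coactivator Ep300 at 11.9-fold. Cop1, a ubiquitin ligase, and Trib1, the pseudokinase that brings C/EBPα to it, had folds of 9.76 and 9.71. Cdk2 had no peak, and Hnf4a and Foxa2 had distal peaks only. None of their highest promoter summits held TGATGNAA, which was in only 1.89% of all promoter peak windows.

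The PERK branch, which leads to CHOP and runs on from it, had promoter peaks at 11 of 14 genes (78.6%, Wilson interval 52.4 to 92.4%), against 27.9% of all. Its leading folds were 106 at Trib3, 40.6 at Ppp1r15a (the GADD34 gene), 29.9 at Chac1 and 25.7 at Ero1l. Tnfrsf10b, Bcl2l11 and Ddit4 had distal peaks only. Among their 11 highest promoter summits, 4 held TGATGNAA, against 1.89% of all promoter peak windows. Those of Atf3 and Chac1 held TGATGCAA, as the strong C/EBP gene peaks did, against 0.840%. The list was drawn from known genes of the pathway and its count is not an unbiased sample. Atf3 and Atf4, both with a promoter peak, are also among the bZIP partners and relatives, so the counts of these lists overlap.

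Genes listed as targets of C/EBPα and C/EBPβ in hepatocytes had promoter peaks at 3 of 18 (16.7%, Wilson interval 5.84 to 39.2%). Whether each listed gene is such a target in liver was not tested. The share over all protein-coding genes was 27.9%. This list, too, is not an unbiased sample. The genes with a promoter peak were Pck1, of gluconeogenesis, at 10.5-fold, Fasn, fatty acid synthase, at 5.99-fold and Pparg at 5.48-fold. A distal peak without a promoter peak was found at 12 of the 18, against 10.3% of all protein-coding genes. The highest of these distal peaks were at Tat (26.2-fold), Cps1 (19.5-fold) and G6pc (18.3-fold). Gys2, F9 and Crp had no peak. With a promoter limit of 2 kb the count of promoter peaks was 7 of 18, against 29.4% of all genes.

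**Figure D4:**
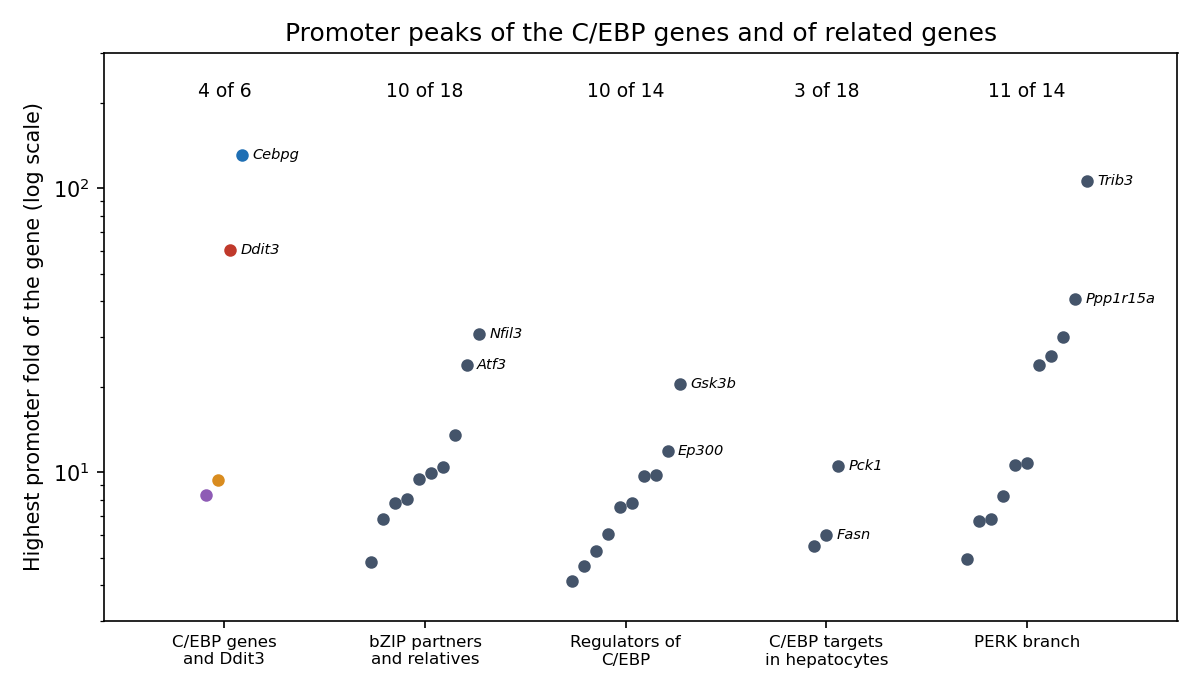
Highest promoter fold (log axis) of each gene with a promoter peak, for the C/EBP genes with Ddit3 and for the 4 related lists, with the number of genes that have such a peak above each column and the leading genes named. Cebpg at 131-fold is the highest point, Trib3 at 106-fold the next, and Ddit3 stands at 60.9-fold.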

How the data were processed

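The immunoprecipitate is represented by the authors' peak list. Per the labels' protocols, Bowtie placed single-end reads on mm10 with at most 2 mismatches, reads beyond 2 at the same position and strand were dropped, SAMtools 1.9 and Sambamba 0.7.1 filtered the alignments, and MACS2 2.1.2 called peaks with its default parameters. Each peak carries the authors' fold (a ratio of summit pileup plus 1 to local background plus 1), −log10 p, −log10 q and a deposited score equal to 10 times −log10 q within 1. These are the authors' values. Total read depth and Bowtie's version are not stated in the labels. An input file was not used here.

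Whole-number reads at each summit and the background were solved from fold and −log10 p, which worked for all 14157 peaks (largest residual 3.13e-05, tolerance 0.0001) and for 100% of 500 peaks tested on simulated data. The 95% intervals are exact Poisson intervals on the reads at fixed background, put through the same ratio. They cover counting error only, and reads carry no molecular identifiers.

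Start sites are those of protein-coding transcripts in GENCODE M21. A second gene named Ddit3 that overlaps the one used was left out. Motifs were matched on both strands in GRCm38.p6, within 50 bp of the summit. The members and lists were chosen with earlier results of these data known. Genes named are the 6 members with every peak, up to 4 genes per list with the highest promoter fold, genes without a promoter peak where 5 or fewer, and neighbours with a peak. Others were chosen after their values were seen. Some items that the rule names are not reported here. There is no replicate, so no test was made and no p-value is given. Python 3.11.15, numpy 2.4.6, pandas 2.3.3, scipy 1.17.1 and matplotlib 3.10.9 were used.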

Additional observations from a re-analysis of the deposited data

How the results depend on the processing

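The 4 genes with a promoter peak were Cebpa, Cebpd, Cebpg and Ddit3 under every threshold, start-site set and distance tried, and Cebpb made them 5 with a limit of 2 kb or with the whole peak interval. The number of their promoter peaks fell from 8 to 4 with a limit of 500 bp, which moved the distal peaks from 1 to 5. Distal peaks numbered 0 with a limit of 2 kb, 0 with the whole interval, 0 when the nearest start of any annotated gene was used, and 4 with a distal limit of 100 kb (3 at Cebpb and 1 at Cebpd). The composite element was found in 1 of 9 windows (Ddit3) within 25 bp of the summit in place of 4 within 50 bp, since the elements of Cebpg and Cebpb straddle that limit and that of the intronic Ddit3 peak, 45 bp from its summit, lies beyond it. The C/EBP targets in hepatocytes with a promoter peak were 7 with a limit of 2 kb. Ranking by −log10 q, by reads or within the class left 3 peaks in the top 1%. For single peaks, 7 such ranks lay outside the range that the Poisson interval of the fold allows and 20 inside it. The exact letters TGATGCAA and the second Ddit3 gene were alternatives chosen after seeing the data. The counts of motif combinations given with the Ddit3 window were not planned either. Protein identity between the members was not run. No paired analysis was possible because there is 1 immunoprecipitated library and no replicate.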
